A study of Mus musculus with 24 samples.

Results

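Neuro2A cells that received an ASO (antisense oligonucleotide) directed at Atxn2 were compared with untransfected Neuro2A cells, 3 samples of each, chosen by their treatment labels from the 24 samples of the series. Neuro2A is a wild-type mouse neuroblastoma line grown as neuroblast-like cells, and all groups were grown in the same medium. The 18 remaining samples had been transfected with plasmids for the RNA-targeting CRISPR effectors RfxCas13d, its high-fidelity form HiFi-RfxCas13d or DiCas7-11, each with an mATXN2-targeting crRNA or a non-targeting (NTG) crRNA, and the shared protocol gives a harvest at 48 hr after transfection. In the study the ASO served as the positive control for lowering mATXN2 mRNA. No group received a control oligonucleotide, and the sequence, chemistry, dose and delivery of the ASO are not given in the sources used here, so the loss of Atxn2, the oligonucleotide and the way it was delivered cannot be told apart. The 9 NTG samples are given beside the main comparison as cells that were transfected but not aimed at Atxn2; the count table heads their columns EV where the labels say NTG, and whether that means an empty vector is not stated.

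Ataxin-2 is an RNA-binding protein that associates with poly(A)-binding protein, is found in stress granules and binds many mRNAs in their 3' untranslated ends. Expansion of its glutamine repeat causes spinocerebellar ataxia type 2, and repeats of intermediate length are a risk factor for amyotrophic lateral sclerosis. Gapmer ASOs pair with their target RNA and recruit RNase H1, which cuts the RNA strand of the duplex. Transfected oligonucleotides and plasmids can also be met by the cell's nucleic acid sensors, which switch on interferon-stimulated genes.

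The ASO libraries held 21874644 to 22504999 expected counts and the untransfected libraries 12665725 to 16813658, so that the ASO libraries were the deeper ones. Levels are given as TMM-scaled CPM, counts relative to the size of the library, which do not correct for gene length, and differences as log2 ASO minus untransfected from edgeR's quasi-likelihood test over 13901 genes, with Benjamini-Hochberg adjusted p under 0.05 as the threshold for a call. The first principal component of the 24 libraries held 28.4% of the variance. It placed the ASO samples at one end, the untransfected samples at the other and the plasmid-transfected samples between them. Of 15 neuroblast markers, 13 passed the filter on low values, with Tubb3 at 325 to 423 CPM and Hand2 at 360 to 406 CPM in the 6 samples, whereas Nefm had at most 2 counts in any of the 6. Of the 13, 4 were called higher and 5 lower, and their summed level was 1951 to 1997 CPM with the ASO and 2179.8 to 2224 CPM without. Markers of other cell types were few: Ptprc, Itgam and Adgre1 (microglia or macrophages), Cdh5 and Cldn5 (endothelium), Slc1a3, Olig1 and Olig2 (glia) and Thy1 and Postn (fibroblasts) had no counts in the 6 libraries. The markers that passed the filter summed to at most 2.23 CPM for microglia or macrophages and 7.65 for fibroblasts. They summed to at most 18.9 CPM for astrocytes and oligodendrocytes and 19.6 for the endothelium. Markers under the filter, some with a few counts, are not in these sums. Cd68 was the only one of the 10 microglia or macrophage markers that passed the filter. It stood at 0.91, 0.96 and 2.23 CPM with the ASO and at 0, 0.36 and 0.24 CPM without (log2 difference 2.72). The filter asked for 0.5 CPM in 3 samples, which the ASO samples met and no untransfected sample reached. Its test was thus partly fixed by the filter and is not given. The part of such cells in the results was not tested.

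Atxn2 was the gene with the smallest p of all genes tested. It stood at 54.1, 52.9 and 48.9 CPM in the ASO samples and at 123.2, 125.0 and 121.4 CPM in the untransfected samples, so that the groups lay far apart. The difference was -1.25 on the log2 scale (SE 0.039, edgeR adjusted p = 1.65e-19), a decrease of 57.8% (95% interval 55.5 to 60.02%). An exact two-sided permutation test over the 6 samples gave p = 0.1, the smallest that 3 against 3 samples allow. By size it ranked 115 among the genes that were lower. The 9 NTG samples lay between 112 and 125 CPM, on a level with untransfected cells, and ASO minus the mean of the NTG arms was -1.21 (adjusted p = 3.04e-21). In the mATXN2 crRNA arms Atxn2 stood between 98.8 and 116 CPM, and the mean crRNA response was a decrease of 11.6%. By qPCR in Neuro2A cells the paper reported a larger decrease of mATXN2 mRNA for each of the effectors.

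**Figure D1:**
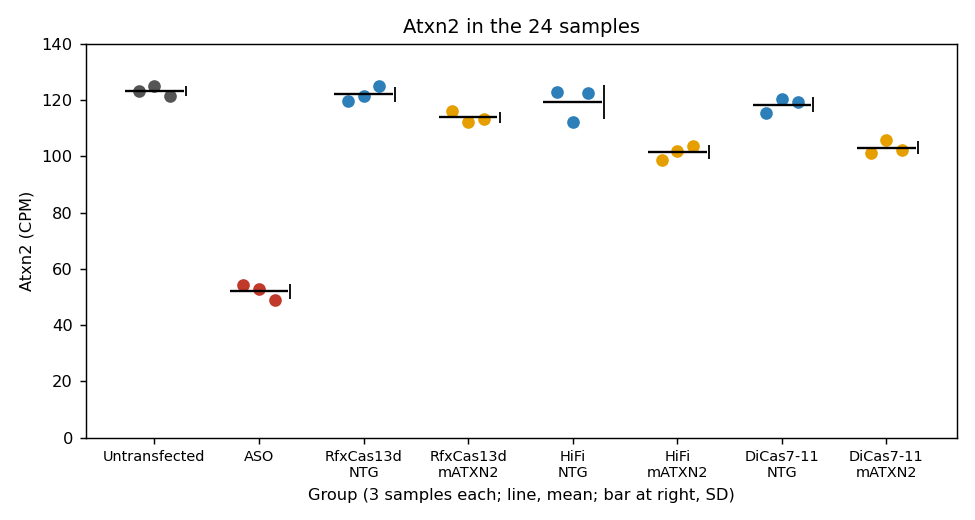
Atxn2 in CPM (vertical axis) in each of the 24 samples, by group (horizontal axis); points are samples, lines group means and bars the SD (n = 3). The ASO samples (48.9 to 54.1 CPM) sit below every other sample, and the crRNA arms (98.8 to 116 CPM) below the untransfected samples.

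Genes around Atxn2 were examined as well. Brap, its neighbour on one side, stood at 65.0, 59.6 and 61.7 CPM with the ASO and at 59.2, 58.3 and 59.5 CPM without, a difference of 0.07 that did not pass the test (adjusted p = 0.17). Sh2b3, an adaptor of cytokine signalling on the other side, fell by 0.33 against untransfected cells (adjusted p = 0.00012), but its difference from the NTG arms was 0.04 (adjusted p = 0.58). Farther out, Aldh2, an aldehyde dehydrogenase, fell by 0.57 (adjusted p = 3.67e-05) and the transcription factor gene Cux2 rose by 0.48 (adjusted p = 0.0096). Against the NTG arms the differences were -0.17 for Aldh2 (adjusted p = 0.11) and 0.33 for Cux2 (adjusted p = 0.020). Myl2, at 0.09 to 0.48 CPM in the 6 samples, had a difference of -1.41 that did not pass the test (adjusted p = 0.11). The paralog Atxn2l was slightly higher (log2 difference 0.11, adjusted p = 0.00145). Of the 16 tested genes in a list of ataxin-2, its paralog and its partners, 4 were called higher and 6 lower. Among them Pabpc1, the cytoplasmic poly(A)-binding protein, fell by 0.19 on the log2 scale (adjusted p = 2.57e-07), Rbfox2, a splicing regulator, fell by 0.25 (adjusted p = 6.97e-08) and Tyms, thymidylate synthase, fell by 0.23 (adjusted p = 1.54e-05), each at 0.12 or more below the NTG arms as well. Tardbp, which encodes TDP-43, stood at 480.4, 492 and 491 CPM with the ASO and at 505, 505 and 517 CPM without, a difference of -0.06 (adjusted p = 0.042) whose call was lost when untransfected replicate 3 was left out (adjusted p = 0.19).

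Beyond the target, 5938 of the 13901 genes passed the test, a background of 42.7% called: 2919 were higher with the ASO (21.0%) and 3019 lower (21.7%). With the deeper libraries thinned to the lowest total, 5406 genes passed. Most of these differences were small. Their median size was 0.27 on the log2 scale, 2910 of them were under 1.2-fold, and 435 (3.13% of the genes tested) reached 2-fold, of which 290 were higher (2.09%) and 145 lower (1.04%). The ASO and untransfected samples did not overlap for 51.8% of the genes tested, with all ASO samples above for 25.8% and below for 26.1%. Against the mean of the NTG arms, which shares the ASO samples with the main comparison, 5622 genes passed (40.4%), 288 of them by 2-fold or more (2.07%), with 222 higher (1.60%) and 66 lower (0.475%). Protein-coding genes made up 12309 of the genes tested and split into 2701 higher and 2901 lower. Long noncoding RNAs were called higher more often than lower, at 167 against 78 of 1176.

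**Figure D2:**
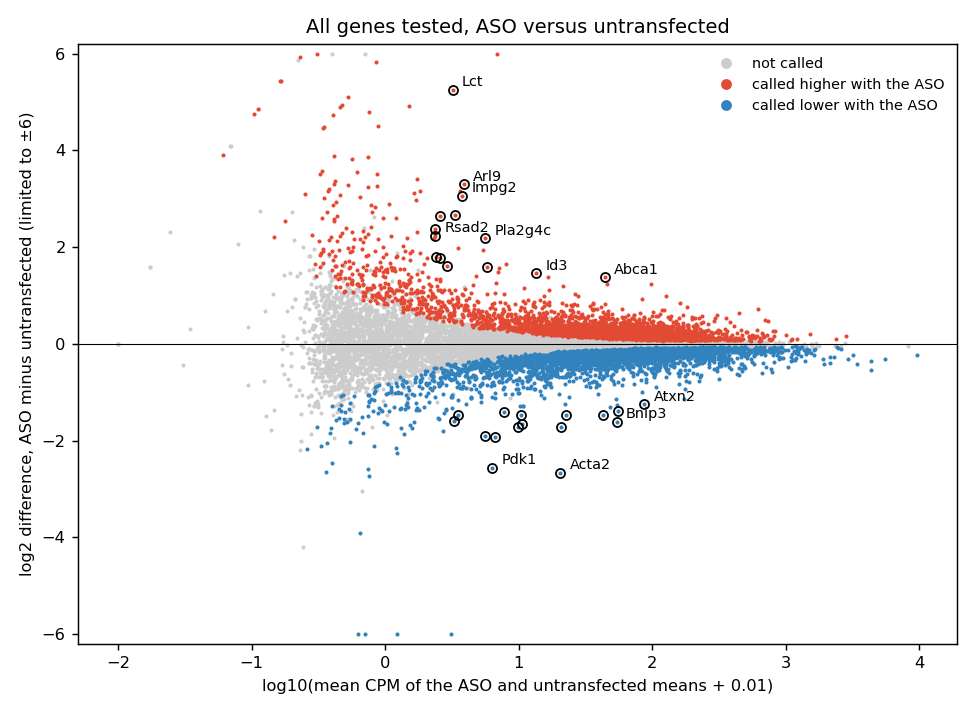
Each point is a gene tested: the horizontal axis is the log10 of the mean CPM of the ASO and untransfected groups (plus 0.01) and the vertical axis the log2 difference, ASO minus untransfected, limited to ±6. Genes called higher (2919) and lower (3019) spread over the whole range of levels; circles mark Atxn2 and the largest rises and falls except Npcd, and Atxn2 lies at the lower edge of the genes near its own level.

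The largest rises among genes with at least 50 counts on average were in genes with few counts in untransfected cells. Lct, the intestinal enzyme lactase, stood at 4.74, 6.63 and 7.27 CPM in the ASO samples and at 0.26, 0.12 and 0.08 CPM in the untransfected samples, a log2 difference of 5.25 (SE 0.40, edgeR adjusted p = 1.63e-11). Its highest level in the 9 NTG samples was 0.62 CPM. Impg2, a proteoglycan of the retinal matrix, stood at 5.65, 5.89 and 8.65 CPM against 1.22, 0.60 and 0.56 CPM (3.06, adjusted p = 5.33e-09). Avil, which encodes the actin-severing protein advillin, stood at 4.30, 4.27 and 4.68 CPM against 0.83, 0.42 and 0.88 CPM (2.65, adjusted p = 1.32e-07). All 3 ASO samples lay above every NTG sample for these genes. That they lay above every untransfected sample was a condition for naming them.

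Pla2g4c, a calcium-independent phospholipase A2, reached 9.04, 8.85 and 9.81 CPM from 1.80, 2.40 and 1.83 CPM (2.19, adjusted p = 5.71e-10). Abca1, the membrane pump that exports cholesterol, rose as well, at 60.5, 63.9 and 66.3 CPM against 26.8, 23.6 and 22.6 CPM (1.38, SE 0.071, adjusted p = 4.23e-15). It was intermediate in the NTG samples, at 33.7 to 46.0 CPM. Others that rose were Fam186b (2.66) and Tnfrsf23 (2.38), a decoy receptor of the TNF receptor family. Il20rb (1.60), a subunit of receptors for interleukins of the IL-20 family, and Ipw (1.59), an imprinted noncoding RNA, rose too. Each of them was above the mean of the NTG arms by 1.27 or more. No overlap between the ASO and untransfected samples was a condition for naming genes by rank.

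For some of these genes the ASO samples differed among themselves. Arl9, a small GTPase, stood at 8.56 and 10.9 CPM in replicates 1 and 3 but at 1.74 CPM in replicate 2, against 0.71, 0.84 and 0.56 CPM in untransfected cells (3.30, SE 0.82, adjusted p = 0.0016), and the NTG samples reached 6.09 CPM. Npcd was listed at 22.5, 14.1 and 4.86 CPM with the ASO and at 0 in all 3 untransfected samples, at least 67.8-fold higher if 3 counts per library are taken as the floor. The gene model shares sequence with its neighbours, NTG samples ranged from 0 to 44.8 CPM, and its call was lost without ASO replicate 1 or any of the untransfected replicates, so its value is uncertain.

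Genes of glycolysis and of the response to low oxygen were lower, and of the 55 lists this had the highest share of members called lower. When oxygen is ample, prolyl hydroxylases such as those encoded by Egln1 and Egln3 mark the transcription factor HIF-1 alpha for destruction. When it is scarce, HIF binds the core motif ACGTG near its target genes and raises glucose uptake, glycolysis and lactate export. Of 39 tested members 35 were called lower and 1 higher, beside 21.7% and 21.0% of all genes, with a median log2 difference of -0.50 beside -0.0021 over all genes. Against the NTG arms 36 were lower and 1 higher, beside 20.9% and 19.5% of all genes. The number called lower stayed between 33 and 35 when each of the 6 libraries was left out in turn, and at 35 after correction for transcript length, coding length or GC content.

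Pdk1, the kinase that keeps pyruvate out of the mitochondrial citric acid cycle, had the largest fall of the list. It stood at 3.17, 1.26 and 1.07 CPM with the ASO and at 11.5, 11.7 and 9.16 CPM without, a log2 difference of -2.56 (SE 0.27, adjusted p = 1.05e-08). Bnip3, a mitophagy receptor, stood at 37.7, 21.5 and 20.7 CPM against 84.5, 85.3 and 74.7 CPM (-1.61, adjusted p = 3.16e-10). Ankrd37 stood at 5.74, 3.88 and 4.33 CPM against 16.4, 15.2 and 13.9 CPM (-1.71, adjusted p = 2.00e-09). In these genes ASO replicate 1 was the highest of the 3 ASO samples. That the ASO and untransfected samples did not overlap was a condition for naming them.

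Ndrg1, a stress-responsive gene of differentiating cells, fell by 1.65 on the log2 scale (adjusted p = 1.38e-08), and Aldoc, the brain form of aldolase, fell by 1.48 (adjusted p = 4.77e-10). Slc16a3, which exports lactate, stood at 136, 96.5 and 91.5 CPM against 231, 255 and 229.5 CPM (-1.14, SE 0.10, adjusted p = 2.46e-10). The glucose transporters Slc2a3 (-0.69, adjusted p = 1.89e-13) and Slc2a1 (-1.04, adjusted p = 1.56e-08) were both lower. Slc2a3 stood at 179, 166 and 179 CPM against 293, 279 and 276 CPM.

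Enzymes of the pathway itself fell by smaller amounts. Gapdh stood at 1753, 1645 and 1621 CPM against 2246, 2234 and 2169 CPM (-0.41, SE 0.029, adjusted p = 4.94e-12), Pgk1 at 377, 329.8 and 332 CPM against 557, 543 and 525 CPM (-0.65, adjusted p = 2.98e-11), and Hk2, the hexokinase that starts glycolysis, at 139, 118 and 116 CPM against 199, 195 and 194 CPM (-0.66, adjusted p = 1.31e-11). P4ha1, a prolyl hydroxylase of collagen, stood at 85.0, 70.9 and 68.9 CPM against 138, 136 and 142 CPM (-0.88, adjusted p = 1.12e-12). Hif1a mRNA itself stood at 242, 240.4 and 247 CPM against 245, 252 and 246 CPM and did not pass the test (-0.03, adjusted p = 0.49). Pfkfb3, which makes the activator of phosphofructokinase, was the member called higher (0.16, adjusted p = 0.00088).

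The promoters of these genes were searched because HIF has a known motif. RefSeq sequence (GRCm38.p6) of the 250 bases before the start was at hand for 32 of the 35 genes called lower, and for 9931 (80.7%) of the 12309 protein-coding genes tested. ACGTG, read on both strands, occurred in 20 of those 32 (62.5%) and in 25.1% of the 9931. Over all tested members of the list, whatever their call, it occurred in 22 of 36 (61.1%). The list was chosen as genes of glycolysis and hypoxia, so its share above that of all genes does not bear on the falls. ACGTG is also the core of CACGTG, which Myc and other factors bind, and a match describes letters only. Stretches of 80 bases are shown in the direction of transcription with ACGTG or its complement in capitals. They were picked from genes with large falls whose promoter held a match. Pdk1, Ndrg1 and Aldoc fell more than Slc16a3 and are not shown. They lie at chr8:45999851-45999930 (minus strand) for Ankrd37, chr7:138909564-138909643 (minus strand) for Bnip3 and chr11:120948987-120949066 (plus strand) for Slc16a3.
Ankrd37: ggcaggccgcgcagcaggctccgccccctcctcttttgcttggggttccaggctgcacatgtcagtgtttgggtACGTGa
Bnip3: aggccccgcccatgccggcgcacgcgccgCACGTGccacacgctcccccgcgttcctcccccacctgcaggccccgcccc
Slc16a3: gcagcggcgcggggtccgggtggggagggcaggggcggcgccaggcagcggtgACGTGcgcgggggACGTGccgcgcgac
In Ankrd37 and Slc16a3 the nearest match lies 6 and 14 bases before the start, and in Bnip3 a palindromic CACGTG holds a match on each strand.

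**Figure D3:**
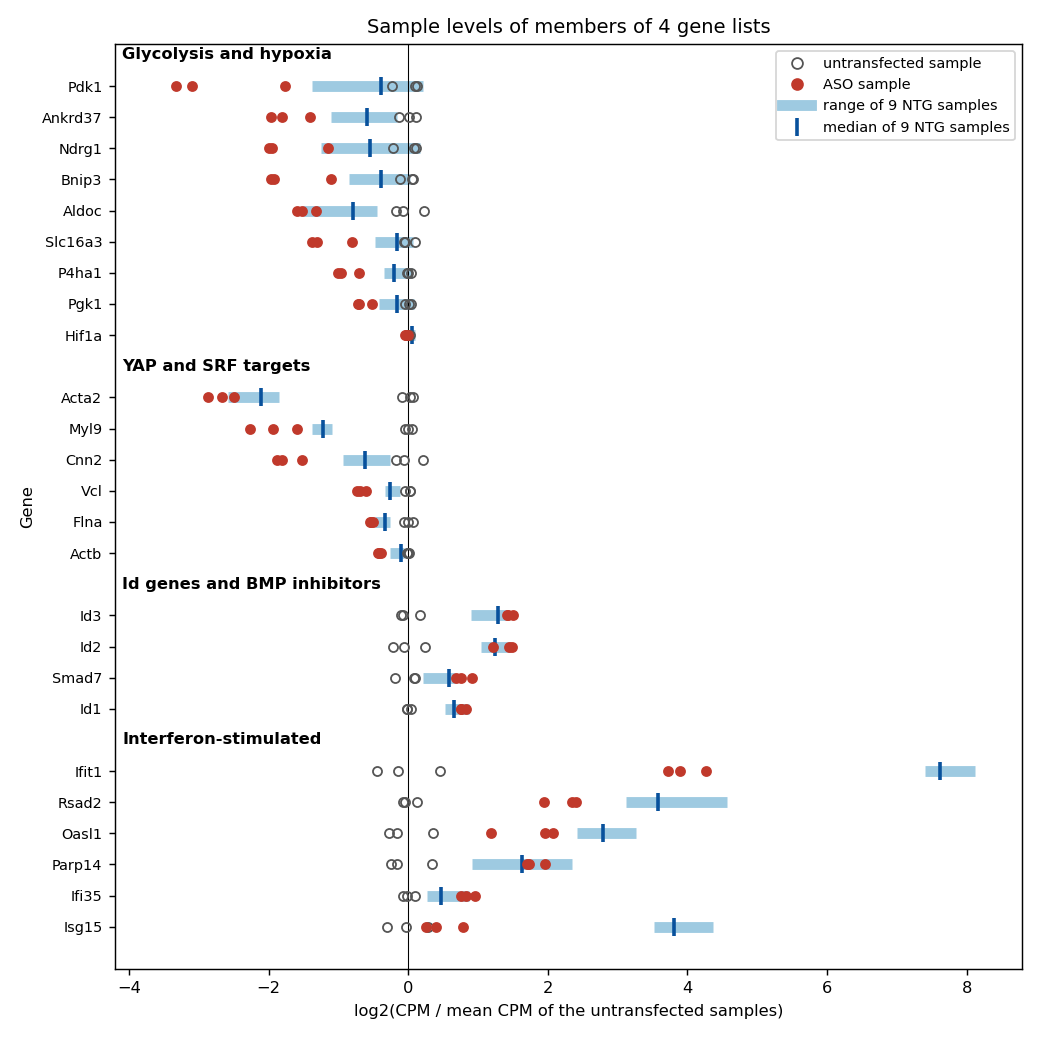
Level of each gene (rows) in each sample, as the log2 of its CPM over the mean CPM of the 3 untransfected samples (horizontal axis); open points are untransfected samples, filled points ASO samples, bars the range and ticks the median of the 9 NTG samples. The hypoxia genes other than Hif1a lie to the left in the ASO samples, below the NTG medians, Acta2 and the Id genes lie near the NTG range, and Ifit1, Rsad2 and Isg15 lie far to the right in the NTG samples.

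More targets of SRF and YAP, transcription factors that read the state of the actin cytoskeleton, were lower than higher. Of 19 tested members 12 were called lower and 3, Amotl1, Ajuba and Crim1, higher (1 of them by DESeq2), with a median of -0.42, and 11 were lower against the NTG arms. Acta2, smooth muscle actin, had the largest fall of all named genes, at 6.30, 4.84 and 5.58 CPM against 37.1, 33.3 and 36.2 CPM (-2.67, SE 0.12, adjusted p = 2.05e-16). The NTG samples were low too, at 5.91 to 9.82 CPM, so that ASO minus NTG was -0.51 (adjusted p = 0.00078). Plasmid-transfected cells thus differed from untransfected cells in the same direction.

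Myl9, a myosin regulatory light chain, stood at 2.30, 2.92 and 1.83 CPM against 8.60, 8.81 and 9.16 CPM (-1.91, adjusted p = 3.36e-11), and the NTG samples lay between 3.39 and 4.16 CPM. Cnn2, the actin-binding calponin 2, stood at 11.2, 9.16 and 8.70 CPM against 37.0, 28.5 and 30.8 CPM (-1.73, adjusted p = 2.25e-12), with the NTG samples between 16.7 and 26.6 CPM. The cytoplasmic actins fell as well. Actg1 stood at 3660.3, 3533 and 3479 CPM against 5299, 5156 and 5152 CPM (-0.55, SE 0.023, adjusted p = 8.89e-17), and Actb at 3009.9, 2950.3 and 2916 CPM against 3906, 3955 and 3996 CPM (-0.42, adjusted p = 6.16e-15). Vcl, the focal adhesion protein vinculin, fell by 0.68 (adjusted p = 5.38e-15) and Srf itself by 0.28 (adjusted p = 0.00046).

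The CArG box, the motif that SRF binds, was searched on both strands of the 250 bases before the start. It was found in 5 of the 10 genes of this list that were called lower and had a RefSeq promoter. It occurred in 6 of 17 tested members (35.3%), in 0 of the 3 called higher and in 1.5% of the 9931 promoters. The list was chosen as SRF and YAP targets, so its share above that of all promoters does not bear on the falls. The 2 stretches shown were picked from genes with large falls whose promoter held a match, with the CArG box in capitals. They lie on the plus strand at chr2:156775273-156775352 for Myl9 and chr10:79988514-79988593 for Cnn2.
Myl9: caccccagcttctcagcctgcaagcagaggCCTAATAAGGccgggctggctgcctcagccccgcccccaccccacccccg
Cnn2: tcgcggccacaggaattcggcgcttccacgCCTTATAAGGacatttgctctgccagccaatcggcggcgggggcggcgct

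In the list of extracellular matrix and basement membrane genes 20 of 32 were called lower and 1, Lamb2, higher, with a median of -0.30. Without untransfected replicate 1 the number called lower was 16, and against the NTG arms 11 were lower and 4 higher. Col4a2 and Col4a1, the chains of the main basement membrane collagen, stood at 241, 236 and 240.3 CPM against 408, 399 and 385 CPM (-0.73, SE 0.029, adjusted p = 2.24e-17) and at 173, 183 and 182 CPM against 277, 285 and 282 CPM (-0.65, adjusted p = 1.23e-16). Ncan, the brain proteoglycan neurocan, fell by 0.78 (adjusted p = 2.23e-12), and Itgb1, the common integrin beta chain, fell by 0.29 (adjusted p = 9.41e-12). Fn1, fibronectin, stood at 617, 612 and 600.4 CPM against 643, 618 and 590.3 CPM, and its groups overlapped (-0.02, adjusted p = 0.76).

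Id genes, which encode inhibitors of basic helix-loop-helix transcription factors and respond to bone morphogenetic proteins (BMPs), rose. In the list of TGF-beta, BMP and Id genes 10 of 19 were called higher and 3 lower, with a median of 0.25. Id3 stood at 19.4, 20.6 and 19.7 CPM against 6.74, 6.89 and 8.20 CPM (1.46, SE 0.10, adjusted p = 3.15e-12), Id2 at 24.7, 21.1 and 25.5 CPM against 7.83, 10.7 and 8.76 CPM (1.37, adjusted p = 1.30e-12), and Id1 at 42.3, 44.3 and 42.1 CPM against 24.7, 25.7 and 24.8 CPM (0.77, adjusted p = 1.16e-10). Smad7, the inhibitory Smad, rose by 0.79 (adjusted p = 4.87e-09) and Smad9, a Smad of the BMP branch, by 0.82 (adjusted p = 3.55e-13). The receptor Bmpr1a went the other way, at 179.7, 168 and 165 CPM against 275, 251 and 257 CPM (-0.61, adjusted p = 2.21e-14), as did the ligand Tgfb1 (-0.65, adjusted p = 2.47e-06).

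Plasmid-transfected cells shared the rise of the Id genes. The NTG samples held 13.6 to 19.2 CPM of Id3, 18.8 to 25.3 CPM of Id2 and 36.1 to 45.8 CPM of Id1. ASO minus NTG was 0.20 for Id3 (adjusted p = 0.017), 0.12 for Id2 (adjusted p = 0.13) and 0.11 for Id1 (adjusted p = 0.055). Over the list 3 members were higher and 4 lower against the NTG arms.

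Many interferon-stimulated genes were higher with the ASO than in untransfected cells, and many were lower than in plasmid-transfected cells. Of 51 tested members 27 were called higher and 2 lower (median 0.57, 12 of them 2-fold or more higher), whereas against the NTG arms 3 were higher and 34 lower (median -0.57). Ifit1, which binds RNA lacking the host's cap methylation, stood at 1.69, 1.31 and 1.16 CPM with the ASO, at 0.064, 0.12 and 0.080 CPM in untransfected cells and at 14.9 to 24.6 CPM in the NTG samples. Its log2 difference was 3.86 from untransfected cells (adjusted p = 3.22e-07) and -3.68 from the NTG arms (adjusted p = 1.79e-18). Rsad2, which encodes the antiviral enzyme viperin, stood at 3.17, 4.36 and 4.19 CPM, between the untransfected samples (0.90, 0.78 and 0.80 CPM) and the NTG samples (7.14 to 19.5 CPM). Oasl1 (1.78) and Oasl2 (3.41), of the oligoadenylate synthetase family, lay between those groups in the same way.

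A smaller set was as high with the ASO as in plasmid-transfected cells. Parp14, an ADP-ribosyltransferase, stood at 3.48, 4.14 and 3.52 CPM against 1.35, 0.90 and 0.96 CPM in untransfected cells (1.79, adjusted p = 2.58e-07) and differed from the NTG arms by 0.09 (SE 0.15, adjusted p = 0.67). Ifi35 stood at 25.4, 29.0 and 26.6 CPM against 16.0, 14.7 and 14.3 CPM (0.85, adjusted p = 1.15e-10) and Psmb8, a subunit of the immunoproteasome, at 26.9, 27.0 and 26.2 CPM against 18.9, 18.0 and 16.9 CPM (0.57, adjusted p = 1.66e-09), each above the mean of the NTG arms (0.31 and 0.16). Gbp3 had no counts in the 3 untransfected libraries and stood at 0.52, 0.61 and 0.18 CPM with the ASO, and its level in the NTG samples is not given here.

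The widely used interferon marker Isg15 gave no call. It stood at 1.04, 1.35 and 0.94 CPM against 0.77, 0.96 and 0.64 CPM (0.47, adjusted p = 0.18) and at 9.08 to 16.3 CPM in the NTG samples. The class I histocompatibility genes H2-D1 (-0.28, adjusted p = 5.61e-07) and H2-K1 (-0.20, adjusted p = 2.92e-06) were the 2 members called lower. Among 17 sensors of foreign nucleic acid 8 were called higher and 1 lower: the kinase Tbk1 (0.30, adjusted p = 6.49e-08), the RNA editor Adar (0.30, adjusted p = 9.33e-07) and the antiviral protein Zc3hav1 (0.21, adjusted p = 9.01e-06) were higher, and Sting1, the adaptor of cytosolic DNA sensing, was lower (-0.36, adjusted p = 0.00044).

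Many mRNAs for chromatin regulators and for very large kinases and ubiquitin ligases were higher. Of the 19 tested H3-K4 methyltransferases and their shared subunits 13 were called higher, and the number stayed at 12 or 13 when each library was left out. Kmt2d stood at 207, 212 and 203 CPM against 139, 98.7 and 110.5 CPM (0.84, SE 0.074, adjusted p = 3.14e-10), Kmt2a at 149, 157 and 151 CPM against 102, 94.6 and 83.8 CPM (0.70, adjusted p = 5.13e-11) and Kmt2b at 88.8, 88.3 and 88.3 CPM against 63.3, 58.6 and 53.8 CPM (0.59, adjusted p = 3.00e-11). Of the 16 PI3K-related kinases and giant ubiquitin ligases 14 were called higher and 1, the checkpoint kinase Atr, lower. Rnf213, an interferon-responsive ubiquitin ligase and among the largest proteins of the cell, stood at 129, 147 and 139.5 CPM against 60.2, 61.2 and 54.6 CPM (1.24, SE 0.070, adjusted p = 3.71e-14), and Herc1 at 227, 244 and 236 CPM against 172, 160.1 and 162 CPM (0.52, adjusted p = 1.19e-10).

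Coding length moved with the direction of the calls over the whole transcriptome. With the genes cut into 10 equal groups by coding length, in the group with the shortest coding sequence (median 412 bases) 9.81% were called higher and 33.1% lower, and in the group with the longest (median 4725 bases) 40.2% were higher and 18.1% lower. After correction of each library for coding length, 8 of the 16 kinases and ligases were still called higher and 3 lower, and 11 of the 19 H3-K4 genes were higher. Across the 12128 genes with a coding length (87.2% of those tested), Spearman's rho of length with the log2 difference was 0.14. This is a description across genes measured in the same libraries, and its part in each list was not tested beyond these corrections.

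**Figure D4:**
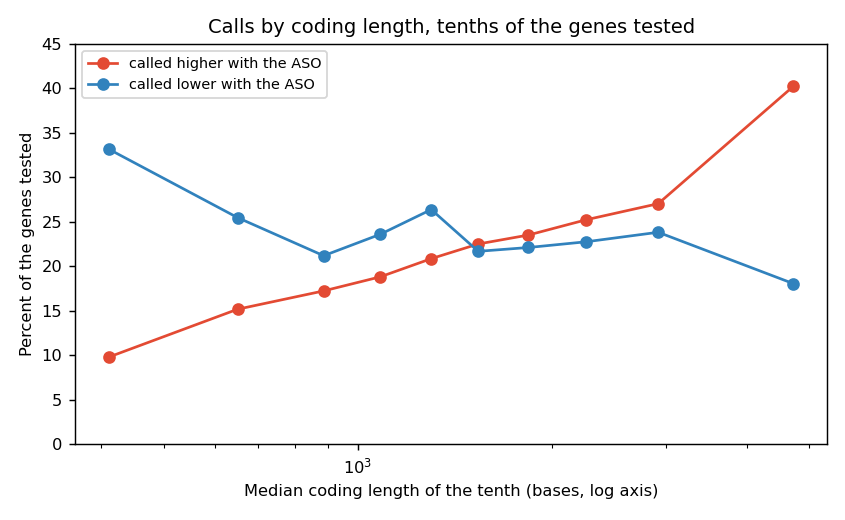
Percent of the genes tested that were called higher or lower with the ASO (vertical axis) in 10 equal groups of genes by coding length (horizontal axis, median of each group in bases, log scale). The share called higher goes from 9.81% in the shortest group to 40.2% in the longest, and the share called lower from 33.1% to 18.1%.

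Genes of the translation machinery, many of them short, went the other way. Of 85 cytosolic ribosomal protein genes 68 were called lower and 1 higher, by small amounts (median -0.12). Rpl3 stood at 1010.0, 1013 and 1014 CPM against 1277, 1282 and 1267 CPM and fell by 0.33 (SE 0.018, adjusted p = 1.44e-14), and Rpl12, at 797, 789 and 796 CPM against 985, 1009 and 984 CPM, fell by 0.32 (adjusted p = 4.16e-13). The number called lower was 43 against the NTG arms, 37 after correction for transcript length and 32 after correction for coding length. Their summed level was 52469 to 52954 CPM with the ASO, 57526 to 58159 CPM in untransfected cells and 54005 to 54846 CPM in the NTG samples. Of the nuclear-encoded subunits of the respiratory chain, 8 of 14 were called lower for complex IV, and 11 lower and 1 higher of 17 for ATP synthase, while the 11 of 38 lower for complex I were nearer to the background of 21.7%. After correction for coding length 5 were lower and 4 higher for complex IV, 5 lower and 4 higher for ATP synthase, and 5 lower and 5 higher for complex I. Cox7a2l, which helps assemble respiratory supercomplexes, stood at 125, 119.9 and 114 CPM against 152, 152 and 152 CPM (-0.34, adjusted p = 3.57e-09).

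**Figure D5:**
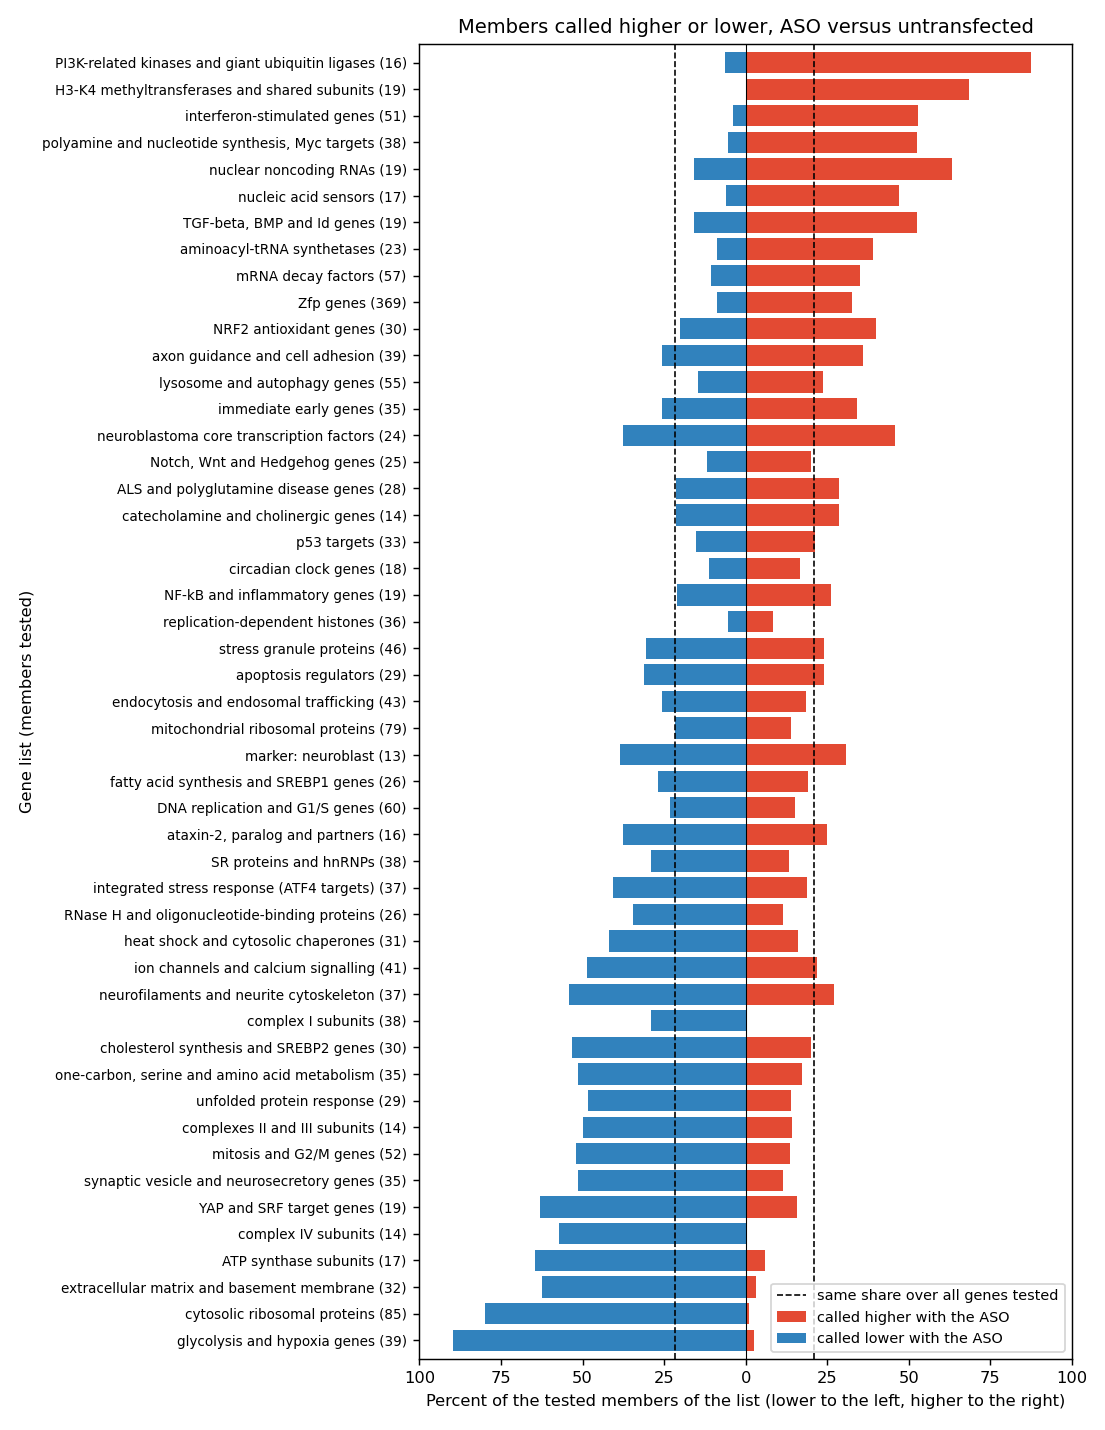
Share of the tested members of each gene list with at least 13 tested members (rows, with the number tested) that were called higher (right) or lower (left) with the ASO, in percent; dashed lines give the shares over all genes tested (21.0% higher, 21.7% lower). Glycolysis and hypoxia genes (35 of 39 lower) and the PI3K-related kinases and giant ubiquitin ligases (14 of 16 higher) stand at the ends.

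Several noncoding RNAs that stay in the nucleus or host small nucleolar RNAs rose: 12 of 19 were called higher and 3 lower, with a median of 0.32. Without ASO replicate 2 the number higher was 8. Snhg12 stood at 34.2, 39.5 and 37.9 CPM against 20.7, 17.4 and 18.2 CPM (0.99, SE 0.070, adjusted p = 3.81e-12). Neat1, the scaffold of paraspeckles, stood at 38.3, 30.4 and 31.5 CPM against 23.2, 15.9 and 17.6 CPM (0.82, adjusted p = 2.70e-06), and Malat1 at 452, 427 and 438 CPM against 384, 284 and 293 CPM (0.45, adjusted p = 2.26e-05). Rian, a noncoding RNA of the imprinted Dlk1-Dio3 region, went the other way (-0.66, adjusted p = 4.43e-07). For Snhg12, Neat1 and Malat1 the ASO samples also lay above every NTG sample.

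Neuronal genes moved in both directions. Among 37 genes of neurofilaments and the neurite cytoskeleton 20 were called lower and 10 higher. Marcks, an actin-regulating substrate of protein kinase C, stood at 137, 144 and 135 CPM against 219, 242 and 254 CPM (-0.78, adjusted p = 6.85e-14) and the progenitor filament gene Nes at 56.3, 57.0 and 54.0 CPM against 85.2, 84.0 and 79.9 CPM (-0.58, adjusted p = 3.78e-12). Ina, a neurofilament subunit, stood at 168, 167 and 166 CPM against 123, 120.2 and 122 CPM (0.46, adjusted p = 3.11e-13) and the microtubule protein gene Map1a at 199, 205 and 209 CPM against 145, 129.6 and 130.4 CPM (0.60, adjusted p = 6.72e-12). After correction for coding length 6 of the 37 were higher.

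Among genes of synaptic vesicles and dense-core granules 18 of 35 were called lower and 4 higher, and without untransfected replicate 3 the number higher was 2. The granule proteins Scg3 (-0.34, adjusted p = 3.84e-10), Vgf (-0.44, adjusted p = 9.76e-10) and Chgb (-0.29, adjusted p = 2.15e-08) and the prohormone-processing enzyme Cpe (-0.40, adjusted p = 3.47e-09) fell. Chgb stood at 821, 835 and 853 CPM against 996, 1032 and 1045 CPM. Of 24 transcription factors and receptors typical of neuroblastoma 11 were higher and 9 lower. Tbx20 stood at 129, 127 and 129 CPM against 89.2, 79.8 and 90.1 CPM (0.57, adjusted p = 6.70e-12) and Isl1 at 39.9, 40.4 and 40.02 CPM against 26.1, 28.8 and 31.8 CPM (0.48, adjusted p = 1.07e-07), whereas Mycn fell by 0.50 (adjusted p = 0.00019).

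Among protein folding genes more were called lower than higher. In the list for the unfolded protein response of the endoplasmic reticulum 14 of 29 were called lower and 4 higher. The disulfide isomerases Pdia4 (-0.39, adjusted p = 2.15e-11) and Pdia6 (-0.44, adjusted p = 5.76e-11) and the chaperone Hsp90b1 (-0.34, adjusted p = 2.14e-09) fell, and Hspa5, its central chaperone, stood at 799, 854 and 833 CPM against 899, 918 and 966 CPM (-0.16, adjusted p = 0.00022). Of 31 cytosolic chaperone genes 13 were lower and 5 higher, among them Hsp90ab1 at 4882, 4935 and 4979.9 CPM against 5998, 6188 and 6307 CPM (-0.32, adjusted p = 1.42e-12). ATF4 targets of the integrated stress response were mixed, with 15 of 37 lower and 7 higher: Ddit3, the stress transcription factor CHOP, stood at 49.3, 52.7 and 54.4 CPM against 31.6, 29.3 and 30.9 CPM (0.77, adjusted p = 3.02e-11), while Pck2, mitochondrial phosphoenolpyruvate carboxykinase, fell by 0.78 (adjusted p = 1.80e-15).

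Among sterol synthesis genes more were lower than higher, while Abca1 was higher. Of 30 genes of cholesterol synthesis and its regulation 16 were called lower and 6 higher. The regulator Srebf2 stood at 313, 326 and 325 CPM against 402, 412 and 397 CPM (-0.33, adjusted p = 1.09e-09), and Dhcr7, the last enzyme of the pathway to cholesterol, fell by 0.33 (adjusted p = 2.10e-08). Npc1l1, which takes up sterols, was among the 6 higher (2.89, adjusted p = 6.84e-06), at 2.042, 1.614 and 1.963 CPM against 0.38, 0.12 and 0.24 CPM. Against the NTG arms 10 were lower and 4 higher.

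Cell cycle genes changed little in size. Of 52 genes of mitosis and the G2/M phase 27 were called lower and 7 higher (median -0.09), and without untransfected replicate 3 the number lower was 19. Top2a, the DNA topoisomerase of dividing cells, stood at 1194, 1222 and 1243 CPM against 1487, 1605 and 1612 CPM (-0.36, adjusted p = 2.15e-10), Kif20b fell by 0.52 (adjusted p = 3.53e-09) and Cdk1 by 0.26 (adjusted p = 3.74e-09). Mki67 stood at 573, 620.4 and 629 CPM against 534, 553 and 541 CPM and was higher (0.16, adjusted p = 0.0025). Of 60 replication genes 14 were lower and 9 higher, beside 21.7% and 21.0% of all genes, so the share lower was near the background and the share higher below it. In bulk RNA, fewer cells in a phase and less mRNA per cell cannot be told apart.

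Some mRNAs for ribosome biogenesis and mRNA decay factors were higher by small amounts. Of 38 genes for polyamine and nucleotide synthesis, ribosome biogenesis and other Myc targets 20 were called higher and 2 lower, among them Polr1a, the large subunit of RNA polymerase I (0.28, adjusted p = 1.54e-07), and against the NTG arms 5 were higher and 12 lower. Of 57 mRNA decay factors 20 were higher and 6 lower. The nonsense-mediated decay factors Smg1 (0.54, adjusted p = 2.14e-09) and Smg5 (0.32, adjusted p = 3.89e-09) were higher against the NTG arms as well (0.53 and 0.21). The Zfp family of zinc finger genes had 120 higher and 32 lower of 369, with a median of 0.10, and 109 higher and 25 lower against the NTG arms. Of 33 p53 targets 7 were higher and 5 lower, which is near the background, and of 19 inflammatory genes of the NF-kB group 5 and 4.

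Other genes with large falls belonged to no list. Enpp1 and Enpp3, ectoenzymes that cleave extracellular nucleotides, stood at 12.9, 11.7 and 11.6 CPM against 35.0, 33.1 and 32.5 CPM (-1.47, SE 0.078, adjusted p = 6.76e-15) and at 26.1, 21.3 and 21.6 CPM against 67.2, 63.8 and 59.2 CPM (-1.47, adjusted p = 6.46e-16). They were intermediate in the NTG samples, at 20.8 to 33.01 CPM and 36.3 to 55.6 CPM. Ctla2a and Ctla2b, a pair of similar cysteine protease inhibitors between which reads may be split, fell by 1.40 (adjusted p = 1.89e-13) and 1.41 (adjusted p = 4.77e-10). Fblim1, a focal adhesion protein, fell by 1.93 (adjusted p = 1.81e-11) and Selenbp1, a selenium-binding protein, by 1.46 (adjusted p = 1.19e-05). Vwa1, a matrix protein, stood at 1.83, 1.88 and 1.2 CPM against 5.77, 4.37 and 4.70 CPM (-1.59, adjusted p = 0.038), and its call was lost without any of the 6 libraries.

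The response to the ASO was compared with that to the crRNAs, which lowered Atxn2 far less in these libraries, though the paper's qPCR gave larger falls. The difference between the ASO response and the mean crRNA response passed the test for 4991 genes (35.9%), of which 350 (2.52%) reached 2-fold, 222 of them upward (1.60%) and 128 downward (0.921%). It was positive for 17.1% and negative for 18.8% of the genes tested. For Atxn2 it was -1.07 (SE 0.045, adjusted p = 1.94e-16). The comparison sets ASO against untransfected cells beside mATXN2 against NTG within plasmid-transfected cells, so that transfection differs inside the former and not inside the latter, and how much of the difference goes with the depth of the Atxn2 knockdown was not tested.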

How the data were processed

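RNA was sequenced by the authors as stranded mRNA libraries (single-end reads, NovaSeq), quantified with Salmon 1.5.2 on the NCBI GRCm39 transcriptome with sequence and GC bias correction, and summarized with tximport (lengthScaledTPM, multi-mapped reads kept). The authors deposited expected counts, 1 value per gene and library, not normalized for depth. A deposited column marking genes the authors kept was used in an alternative only. Expected counts were rounded, genes were tested where 3 or more samples reached 0.5 CPM (13901 of 39253; the others held 0.0524% of the counts), and edgeR 4.0.16 (R 4.3.3, TMM, quasi-likelihood test) fitted 1 model to the 8 groups of 3 samples, as the study's own model did. Contrasts were ASO minus untransfected, ASO minus the mean of the 3 NTG arms, and the ASO response minus the mean crRNA response. P-values were adjusted by Benjamini-Hochberg within each contrast, with 0.05 as the threshold. The paper gives at least 3 independent biological replicates for its in vitro experiments and calls the points of its RNA-seq figure biologically independent. That figure does not show the ASO samples, and how the replicate cultures were kept apart is not described. P-values measure the spread between these samples. The procedure was tested on simulated data.

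Named genes were Atxn2 and, among called genes with a mean of at least 50 counts over the 6 samples and no overlap, the 15 largest rises and 15 largest falls, leaving out predicted or unnamed symbols (7 rises, 0 falls), plus up to 4 called members per list by smallest p and members the text needed. The comparison and the 55 gene lists were chosen with earlier results of these data known. Lists are described by counts and medians beside all genes tested, with no set test. The list of mitochondrially encoded genes had no tested member. Gene lengths came from GENCODE M21, matched by gene ID. Alternatives were other scalings, filters, tools (DESeq2 1.42.0, limma 3.58.1), thinned libraries, length and GC corrections, a replicate block and leaving out each of the 6 libraries. Counting intervals and floors cover counting error only.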

Additional observations from a re-analysis of the deposited data

Results flagged for a closer look

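Each of the 31 genes named by rank differed between its response to the ASO and its mean response to the mATXN2 crRNAs, by edgeR's quasi-likelihood test of that difference (adjusted p under 0.05 in each; 35.9% of all genes tested passed). The genes had been chosen for their size in the ASO comparison, which is part of the same contrast, so the values are descriptions. On the log2 scale, ASO response minus crRNA response, Atxn2 differed by -1.07.

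Among the rises, the differences were 12.6 for Npcd, a fitted value that depends on the prior count because the untransfected libraries held 0 counts, 4.81 for Lct, 3.33 for Arl9, 3.27 for Impg2, 2.94 for Avil, 2.64 for Fam186b and 2.38 for Tnfrsf23. They were 2.24 for Pla2g4c, 1.72 for Ipw, 1.40 for Il20rb, 1.36 for Id3 and 1.26 for Abca1, and among interferon-stimulated genes 2.43 for Rsad2, 1.88 for Parp14 and 1.82 for Oasl1.

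Among the falls, SRF and YAP targets gave -2.59 for Acta2, -2.05 for Myl9 and -1.62 for Cnn2. Fblim1, a focal adhesion protein of no list, gave -1.70. Glycolysis and hypoxia genes gave -2.55 for Pdk1, -1.72 for Ankrd37, -1.59 for Ndrg1, -1.52 for Bnip3 and -1.43 for Aldoc. The others were -2.03 for Vwa1, -1.37 for Enpp1, -1.34 for Enpp3, -1.33 for Selenbp1, -1.34 for Ctla2b and -1.33 for Ctla2a. The mean crRNA response of these genes was within 0.5 of 0 on the log2 scale except for Npcd (-1.72), and passed the test only for Atxn2.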

How the results depend on the processing

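The number of genes called for ASO against untransfected cells lay between 5017 (limma-trend over 10 comparisons) and 6053 (GC correction) over the alternatives in scaling, filter, tool, groups fitted, depth, length and GC, and fell to 1009 when a log2 difference above 0.3 was required, as it did against the NTG arms (590) and for the difference from the crRNA response (735). With each library left out in turn the counts ranged from 5163 to 5509 against untransfected cells, from 4556 to 5633 against the NTG arms and from 4373 to 4624 for the difference between responses. The share of calls that were higher was 49.2% and ranged from 47.9 to 49.3% with a library left out. It was 51.4% with every gene of nonzero count, 51.8% after correction for transcript length, 52.0% after that for coding length, 52.0% after that for GC content and 46.0% at the 0.3 threshold. Atxn2 ranged from -1.28 to -1.20 against untransfected cells and from -1.10 to -1.02 against the crRNA response with a library left out, and each of these values passed the test. The fit limited to the groups compared could not be made for the difference between responses, which uses all groups.

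With the replicate number as a block 6103 genes were called against 5938 without it. The numbers did not pair the samples: the correlations of same-numbered deviations were 0.11, -0.041 and -0.0059, and not every sample correlated best with its own number. Among the 30 largest rises and falls the sign held wherever the gene was tested; 6 were not tested at 5 CPM and 1 (Vwa1) had no adjusted p in DESeq2. Calls were lost for Npcd and Vwa1 only, with a library left out as given above and at the 0.3 threshold. In the lowest of 10 equal groups by level 9.49% were called higher and 3.02% lower; genes there can pass the filter through the ASO samples alone, and the part of depth was not tested in this group.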

Other observations

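For gene groups not described above, counts of calls and log2 differences from edgeR, ASO minus untransfected, are given beside a background of 21.0% of all genes called higher and 21.7% lower. Of 9 variant histone genes 6 were called lower and 1 higher. H1f0 (-0.60, adjusted p = 2.19e-17), the linker histone of resting cells, stood at 527, 531 and 531 CPM with the ASO and at 785, 817 and 798 CPM without. Of 35 genes of one-carbon, serine and amino acid metabolism 18 were lower and 6 higher, among them Pycr1 (-0.83, adjusted p = 2.39e-11), the last enzyme of proline synthesis. Of 41 ion channel and calcium signalling genes 20 were lower and 9 higher, with Kcnn3 (-0.82, adjusted p = 3.07e-10), a calcium-activated potassium channel, and Ryr2 (1.19, adjusted p = 3.32e-12), a calcium release channel, going opposite ways.

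Of 30 antioxidant genes regulated by NRF2 12 were higher and 6 lower, among them Hmox1 (0.46, adjusted p = 6.02e-09), heme oxygenase, and Sqstm1 (0.38, adjusted p = 1.09e-11), the autophagy receptor p62. Axon guidance genes were mixed, with 14 of 39 higher and 10 lower: Nrp1 (0.55, adjusted p = 2.50e-13), a semaphorin receptor, rose and Slit1 (-0.98, adjusted p = 5.63e-11), a repellent ligand, fell. Of 26 proteins that act with RNase H or bind oligonucleotides 9 were lower and 3 higher, and against the NTG arms 17 were lower and 3 higher. Of 23 aminoacyl-tRNA synthetases 9 were higher and 2 lower, and of 55 lysosome and autophagy genes 13 and 8, of which the share higher was near the background. Of 46 stress granule proteins 11 were higher and 14 lower, of 28 genes of amyotrophic lateral sclerosis and polyglutamine disease 8 and 6, of 29 apoptosis regulators 7 and 9, and of 79 mitochondrial ribosomal proteins 11 and 17. Genes were named here for their roles after their values had been seen.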
